A study of Mus musculus with 16 samples.

Results

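The genes described here are 10 mouse genes of antigen presentation by MHC class I: the heavy chain genes H2-K1 and H2-D1, the light chain gene B2m, the peptide transporter genes Tap1 and Tap2, the loading gene Tapbp, the immunoproteasome genes Psmb8, Psmb9 and Psmb10, and the regulator Nlrc5. They were taken by symbol from the GENCODE annotation of GRCm38 (10 of 55450 genes), and 7 of them lie on chromosome 17. Accessible chromatin was measured by ATAC-seq, in which a transposase cuts open DNA and each library yields a list of peaks. Peaks that touched or overlapped between lists were merged, which gave 16566 regions, and 16 of these belonged to the members. A region was assigned to a promoter when it overlapped a window that began 1000 bp upstream and ended 100 bp downstream of an annotated start site of a member. This gave 12 promoter regions, and another 4 regions lay in a member's body or within 10 kb of it.

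The libraries came from splenic B cells of C57BL/6 mice that had been cultured with LPS at 10 µg/mL and IL-4 at 20 ng/mL. The control genotype was Brg1 fl/+ CD23Cre +/- (n = 4 libraries) and the mutant was Brg1 fl/fl CD23Cre +/- (n = 4 libraries), so that both carried the Cre transgene, which acts in mature B cells, and the controls kept 1 allele of Smarca4, the gene for the chromatin remodeler Brg1. The sample labels give 72 hours of culture and the series description 96 hours, while the number of mice behind the libraries is not given in the sources used here, and the study's methods give the age of its animals only as a range of weeks over all experiments. Each library was made from 50000 cells, and the p-values below measure the spread between these libraries, which may be partly technical.

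MHC class I molecules show peptides from inside the cell to CD8 T cells. The immunoproteasome, in which Psmb8, Psmb9 and Psmb10 replace the constitutive catalytic subunits, cuts proteins into peptides. Tap1 and Tap2 pump these into the endoplasmic reticulum, and tapasin, the product of Tapbp, holds the transporter next to empty molecules of heavy chain and beta-2-microglobulin. The class I promoters carry an NF-kB element, an interferon response element bound by IRF factors, and a composite module to which RFX, CREB and NF-Y bind and to which Nlrc5 is recruited as coactivator. B cells express class I throughout their life.

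The promoters that the results turn on are shown first, as RefSeq gives them for GRCm38.p6, from 250 bases before the start site to 30 bases at and after it. Of the 10 members, 8 had an entry in the table of promoters, and Tap2 and Nlrc5 had none. Capitals mark matches on either strand to the NF-kB pattern, to AANNGAAA (IRF type), to TGACG (CREB type) and to CCAAT (NF-Y type). The H2-K1 promoter lies at chr17:34000318-34000597 on the minus strand, H2-D1 at chr17:35262844-35263123 on the plus strand, B2m at chr2:122147437-122147716 on the plus strand and Tap1, whose start region is shared with Psmb9 on the other strand, at chr17:34187306-34187585 on the plus strand. H2-Q7, a class I gene that is not among the 10, lies at chr17:35438905-35439184 on the plus strand and is shown because its promoter differed between the genotypes.
H2-K1: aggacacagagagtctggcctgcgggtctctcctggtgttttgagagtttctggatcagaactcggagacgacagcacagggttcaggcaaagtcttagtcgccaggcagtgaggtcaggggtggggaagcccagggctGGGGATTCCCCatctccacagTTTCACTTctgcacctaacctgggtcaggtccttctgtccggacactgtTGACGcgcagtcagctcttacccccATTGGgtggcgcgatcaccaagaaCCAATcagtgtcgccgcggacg
H2-D1: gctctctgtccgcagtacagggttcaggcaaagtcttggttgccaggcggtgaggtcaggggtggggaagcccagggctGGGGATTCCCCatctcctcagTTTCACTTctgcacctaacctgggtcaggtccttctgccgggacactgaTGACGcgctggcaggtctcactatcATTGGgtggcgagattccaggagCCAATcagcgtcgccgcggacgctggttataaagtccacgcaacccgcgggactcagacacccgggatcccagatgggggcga
B2m: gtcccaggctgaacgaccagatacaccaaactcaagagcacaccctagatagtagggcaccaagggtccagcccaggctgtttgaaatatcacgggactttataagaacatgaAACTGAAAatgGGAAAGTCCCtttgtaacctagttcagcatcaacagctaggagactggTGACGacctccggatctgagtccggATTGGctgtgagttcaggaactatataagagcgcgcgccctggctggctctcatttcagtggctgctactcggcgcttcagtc
Tap1: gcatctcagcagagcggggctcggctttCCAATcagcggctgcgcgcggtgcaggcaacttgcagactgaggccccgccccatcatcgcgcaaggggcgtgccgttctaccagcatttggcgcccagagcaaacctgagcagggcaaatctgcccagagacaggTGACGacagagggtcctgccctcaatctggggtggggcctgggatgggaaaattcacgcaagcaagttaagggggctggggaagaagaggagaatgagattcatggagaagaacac
H2-Q7: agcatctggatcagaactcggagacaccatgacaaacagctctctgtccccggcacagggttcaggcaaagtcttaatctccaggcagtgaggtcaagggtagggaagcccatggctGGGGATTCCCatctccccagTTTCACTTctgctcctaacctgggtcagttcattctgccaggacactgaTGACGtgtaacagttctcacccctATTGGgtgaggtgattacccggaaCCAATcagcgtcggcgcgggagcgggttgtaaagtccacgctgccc

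The heavy chain genes and B2m shared the same set of letters. All 4 patterns were found together in the 300-base promoters of H2-K1, H2-D1 and B2m, that is in 3 of the 8 members in the table, against 30 of all 32851 promoters (0.0913%). Alone, the NF-kB pattern was in 4.51% of all promoters, AANNGAAA in 23.9%, TGACG in 20.8% and CCAAT in 37.4%. In H2-K1 and H2-D1 the NF-kB pattern matched in overlapping frames and on both strands of the same letters, and AANNGAAA was read on the opposite strand. B2m held a further TGACG match 44 to 48 bases after the start site, past the printed stretch. Tap1 held TGACG and CCAAT but neither the NF-kB pattern nor AANNGAAA. The GC box GGGCGG was in 3 of the 8 members, namely Tap1, Psmb9 and Tapbp, and in 35.7% of all promoters. The Tap1 and Psmb9 matches are the same site in their shared start region, read on opposite strands. Psmb8 and Psmb10 held none of these letters in the 300 bases, and the Psmb10 stretch had 3 CpG dinucleotides, a value that 23.3% of all promoters fall below, against 14 in H2-K1 and in B2m, 15 in Tap1 and 19 in H2-D1. A match is a description of the letters and was not tested for binding.

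H2-K1 and H2-D1 have near-identical relatives, so the uniqueness of their sequence bears on the counts. In an alignment of the 300-base promoters, 211 of 239 aligned bases (88.3%) were the same in H2-K1 and H2-D1. None of the 652 words of 50 bases in the H2-K1 peak region occurred elsewhere on chromosome 17, and 3 of 694 (0.432%) did in the H2-D1 region. The Tap1/Psmb9 region and the Tapbp promoter region had none. Other chromosomes were not searched.

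The summits of H2-D1 and most of those of B2m lay within this cluster of letters, and those of H2-K1 lay around its downstream end. At H2-D1 the summits of the 8 libraries lay between positions -132 and -78 from the RefSeq start site, and all 8 fell between the first and the last marked base of the cluster. At B2m they lay between -90 and -42 (7 of 8 inside), and at H2-K1 between -27 and 32 (6 of 8 inside). The NF-kB, IRF and CREB type matches of H2-K1 end at -37, upstream of all its summits, and only its CCAAT matches lie further downstream. The Tap1/Psmb9 summits lay between -117 and -50 from the Tap1 start site, that is between the RefSeq start sites of Tap1 and Psmb9. Of these, 3 of 8 fell between the first and the last marked base of Tap1.

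**Figure D1:**
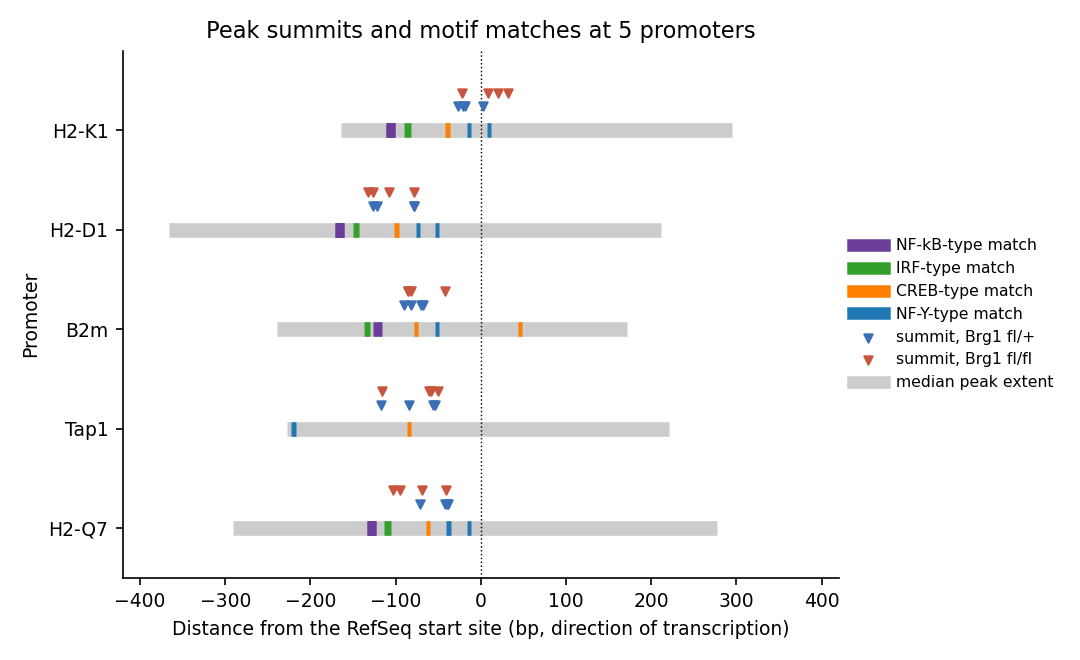
Peak summits (triangles, 4 libraries of each Brg1 genotype) and letter matches (colored blocks) against the distance in bp from the RefSeq start site at the promoters of H2-K1, H2-D1, B2m, Tap1 and H2-Q7; gray bars run between the median peak ends. All 8 summits at H2-D1 lie between -132 and -78 from the start site, and summits of both genotypes overlap at each promoter.

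The lists held 6271 to 14614 peaks, with a genome-wide background of 2.76 to 6.89 fragments per kb. The shortest peak of a list, over which the value per kb was taken, was 195 to 204 bp in Brg1 fl/+ and 231 to 243 bp in Brg1 fl/fl. The background used for calling limits and for scaling, 0.541 to 1.67 fragments, was not divided by this length. To be called over that background, a peak needed at least 7, 6, 5 and 6 fragments in Brg1 fl/+ libraries 1 to 4. In Brg1 fl/fl libraries 1 to 4 it needed 8, 6, 8 and 8. How far the difference in the shortest peak adds to these limits was not tested. The height of a peak, the number of fragments at its summit, was solved from the deposited fold and −log10 p. For comparisons it was divided by a size factor per library (0.569 to 1.93). The Smarca4 promoter had a peak in all 8 libraries (log2 difference 0.25, limma adjusted p = 0.168), which is no check of the deletion because the promoter is not its target. Of the B cell markers reported here, Ms4a1 and Pax5 had a promoter peak in 8 libraries, Fcer2a in 2 and Cd79a in 1, and Cd79b had none. Defining B cell promoters can thus be missing from the lists. None of the 4 T cell and 4 myeloid markers had a promoter peak in any library, so at this depth neither cell type was seen.

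Of the 16 member regions, 6 had a peak in all 8 libraries and 10 in some of them. The 6 were the promoters of H2-K1, H2-D1, B2m and Tapbp, the promoter shared by Tap1 and Psmb9, and a region near Tapbp that is the promoter of BC051226 and Daxx. Thus 6 member genes had a promoter that could be compared, and Tap2, Psmb8, Psmb10 and Nlrc5 had none. H2-K1, H2-D1, B2m, Tap1, Tap2, Psmb8, Psmb9 and Psmb10 had no region other than in their promoter windows.

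**Figure D2:**
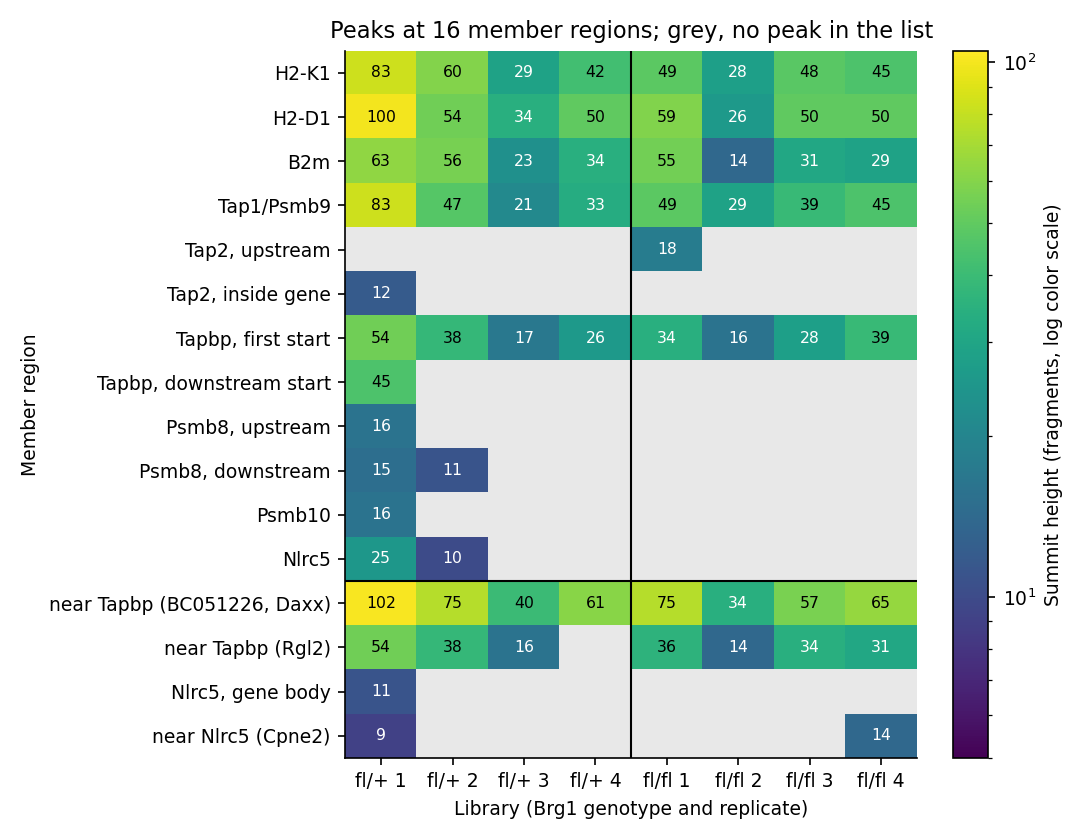
Summit height in fragments (number and color, log color scale) of the peak at each of 16 member regions (rows; the 12 promoter regions above the line) in each of 8 libraries (columns, 4 Brg1 fl/+ and 4 Brg1 fl/fl); gray means no peak in the list. The promoters of H2-K1, H2-D1, B2m, Tap1/Psmb9 and Tapbp are filled in all 8 libraries, 5 other regions are filled in Brg1 fl/+ library 1 alone, and that library had 15 of the 16 regions.

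The library with the longest list, Brg1 fl/+ library 1, had the most member regions. Brg1 fl/+ libraries 1 to 4 had 15, 9, 7 and 6 of the member regions, and Brg1 fl/fl libraries 1 to 4 had 8, 7, 7 and 8. The mean was 9.25 ± 4.03 in the controls and 7.5 ± 0.577 in the mutants (SD, n = 4 each), and the genotypes overlapped. The height needed for a call was 8 fragments in Brg1 fl/fl libraries 1, 3 and 4 and at most 7 in the controls. With each list cut to its best 6271 peaks, every library had 7 regions except Brg1 fl/+ library 4, which had 6. Of the 16 regions, 5 were found in Brg1 fl/+ library 1 only, where 19.6% of all regions were found in that library only. Fewer mutant than control libraries held 7 of the 16 regions, more held 2, and the number was equal for 7, while 47.2% of all regions were held by fewer mutant libraries. Libraries were made from a bulk of cells, so a smaller share of cells with an open site and a less open site in each cell cannot be told apart.

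The heavy chain genes encode the polymorphic chain that binds the peptide. H2-K1 (chr17:33999934-34000634, 701 bp) had scaled heights of 43.1, 48.4, 49.5 and 47.1 fragments in Brg1 fl/+ libraries 1 to 4 and of 40.0, 49.2, 44.0 and 40.8 in Brg1 fl/fl libraries 1 to 4. The genotypes overlapped, with Brg1 fl/fl library 2 among the highest of all. The means were 47.0 ± 2.8 and 43.5 ± 4.17 (SD, n = 4 each). The log2 difference of Brg1 fl/fl minus Brg1 fl/+ was -0.12 (SE 0.14, 95% interval -0.39 to 0.16, limma adjusted p = 0.645) and did not pass the threshold of 0.05.

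H2-D1 (chr17:35262711-35263453, 743 bp) had the highest mean of the 5 promoters. Its scaled heights were 51.9, 43.6, 58.0 and 56.1 fragments in Brg1 fl/+ and 48.2, 45.7, 45.8 and 45.3 in Brg1 fl/fl. The mutant libraries lay close together and below 3 of the controls, and Brg1 fl/+ library 2 was the lowest of all. The means were 52.4 ± 6.39 and 46.3 ± 1.31 (SD, n = 4 each), with a log2 difference of -0.17 (SE 0.13, 95% interval -0.44 to 0.10, limma adjusted p = 0.439).

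B2m, on chromosome 2, encodes the invariant light chain without which class I does not reach the surface. At its promoter (chr2:122147255-122148123, 869 bp) the scaled heights were 32.7, 45.2, 39.2 and 38.1 fragments in Brg1 fl/+ and 44.9, 24.6, 28.4 and 26.3 in Brg1 fl/fl. Of the mutant libraries, 2, 3 and 4 lay below every control, and library 1 stood with the highest control. The means were 38.8 ± 5.13 and 31.1 ± 9.38 (SD, n = 4 each). The log2 difference was -0.36 (SE 0.18, 95% interval -0.71 to 0.00), with a limma p of 0.0514 and an adjusted p of 0.196. With a library left out it ran from -0.55 without Brg1 fl/fl library 1 (adjusted p = 0.0557) to -0.24 without Brg1 fl/fl library 2 (adjusted p = 0.435). Over the 13 alternatives other than scaling by the background the adjusted p ran from 0.0557 to 0.435. No other member promoter had as large a difference, and B2m did not pass the test.

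Tap1 and Psmb9 are transcribed in opposite directions from a single accessible region (chr17:34187291-34187829, 539 bp), so that the transporter and the immunoproteasome subunit cannot be given separate values. Its scaled heights were 43.1, 38.0, 35.8 and 37.0 fragments in Brg1 fl/+ and 40.0, 51.0, 35.8 and 40.8 in Brg1 fl/fl. Both genotypes reached down to the same lowest value, and Brg1 fl/fl library 2 was the highest. The means were 38.5 ± 3.2 and 41.9 ± 6.45 (SD, n = 4 each), and the log2 difference was 0.11 (SE 0.15, 95% interval -0.19 to 0.42, limma adjusted p = 0.682).

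Tapbp has start sites along its body, and its first one shares a region with Zbtb22 (chr17:33915823-33916463, 641 bp). The scaled heights there were 28.0, 30.7, 29.0 and 29.2 fragments in Brg1 fl/+ and 27.8, 28.1, 25.7 and 35.4 in Brg1 fl/fl. The controls fell within the range of the mutants. The means were 29.2 ± 1.1 and 29.2 ± 4.22 (SD, n = 4 each), with a log2 difference of -0.01 (SE 0.17, 95% interval -0.36 to 0.34, limma adjusted p = 0.982).

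**Figure D3:**
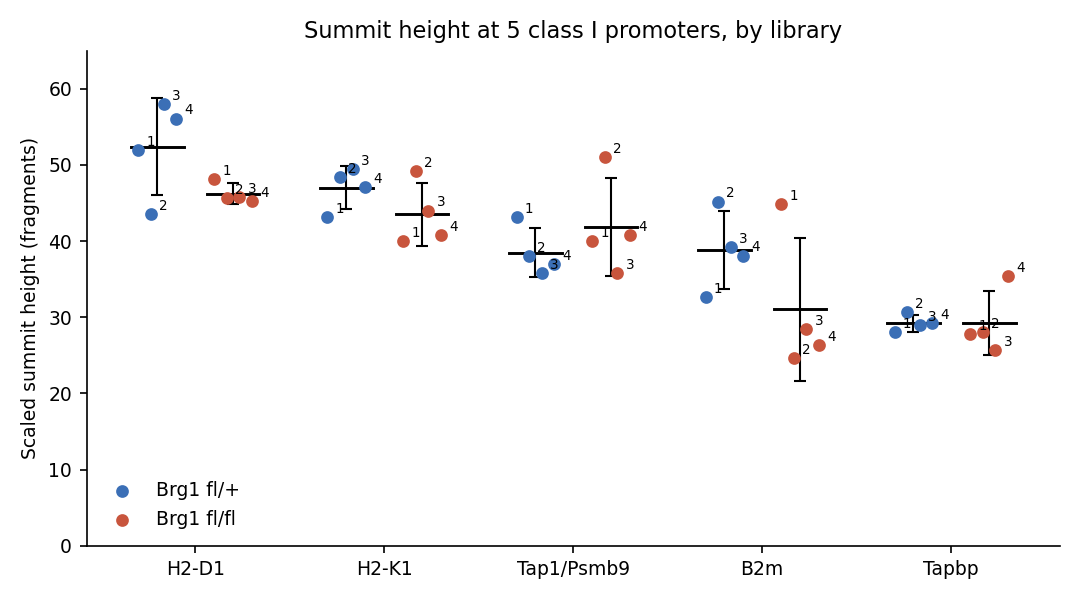
Scaled summit height in fragments at the promoters of H2-D1, H2-K1, Tap1/Psmb9, B2m and Tapbp, with 1 point for each library (numbered by replicate; blue, Brg1 fl/+; red, Brg1 fl/fl) and the mean ± SD of 4 libraries in black. The genotypes overlap at all 5 promoters, and at B2m the Brg1 fl/fl libraries 2, 3 and 4 lie at 24.6 to 28.4 while library 1 lies at 44.9.

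Over all 8 libraries the order of the mean scaled heights was H2-D1 (49.3 ± 5.38), H2-K1 (45.3 ± 3.79), Tap1/Psmb9 (40.2 ± 5.05), B2m (34.9 ± 8.14) and Tapbp (29.2 ± 2.86; SD, n = 8). The order of Tap1/Psmb9 and B2m came from the mutants, with 41.9 and 31.1, while in the controls they stood at 38.5 and 38.8. These means stood at the percentiles 66.8, 59.9, 50.6, 39.5 and 25.9 of the tested promoter regions, whose median was 39.9 fragments. No neighbours in this order differed beyond their spread (two-sided exact sign-flip permutation test over the 8 libraries, adjusted p from 0.188 to 0.219 over the 4 pairs, where the smallest possible p is 0.00781). The order was made from the same means, so neighbours are its closest pairs, and the test does not bear on wider ones. Pairs further apart were not tested, such as H2-D1 (43.6 to 58.0 fragments) and Tapbp (25.7 to 35.4).

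None of the 5 member promoters passed the test, where 412 of 4238 tested promoter regions did (9.72%). Of all 4582 regions tested, 12.1% passed it, 5.52% as lower in Brg1 fl/fl and 6.61% as higher. The median log2 difference of the member promoters was -0.12, and that of all tested promoters was -0.01. Among the 6 member regions tested, the heights of the genotypes overlapped at each, while 15.8% of all tested regions had heights that did not overlap. Scaled by the genome-wide background instead, all regions shifted to a median of -0.81, and the members then all passed the test. This background was not corrected for the longer shortest peaks of Brg1 fl/fl. Such a change of scale moves every log2 difference by the same amount. Relative to the median the members therefore stayed, by construction, at -0.36 (B2m), -0.17 (H2-D1), -0.12 (H2-K1), -0.01 (Tapbp) and 0.11 (Tap1/Psmb9). These relative values are no check of the fit. Tap1/Psmb9 itself flipped to -0.70. With this scaling 99.5% of calls were lower in Brg1 fl/fl, against 45.5% with the size factors.

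The other 7 promoter regions had a peak in 1 or 2 libraries each. At Nlrc5, the coactivator of class I genes, a region shared with 9330175E14Rik (chr8:94434046-94434444) had a peak of 25 fragments in Brg1 fl/+ library 1, exactly on the annotated start site, and of 10 fragments in library 2. None was listed in the other 6 libraries. At the scaled height of library 1 (13.0 fragments), 7.38 to 15.9 fragments would stand in those 6 libraries, above the height that can be called in 5 of them. The scaled height of library 2 was lower (8.07 fragments), and fewer fragments would stand at that height. The missing peaks therefore do not show a loss. With so few peaks the genotypes were not compared.

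Psmb8, the immunoproteasome subunit next to Tap1, had a region upstream of its start (chr17:34197436-34197715) with 16 fragments in Brg1 fl/+ library 1, and at that scaled height it would be above the calling limit in 3 of the 7 libraries that lacked it. A second one further downstream (chr17:34198136-34198558) had 15 and 11 fragments in Brg1 fl/+ libraries 1 and 2. At the scaled height of library 1, the second would be below the calling limit in all 6 libraries that lacked it, so a loss at it could not be seen at this depth. Psmb10, on chromosome 8, had a single peak of 16 fragments, in Brg1 fl/+ library 1, whose summit lay 1322 bp inside the gene near an alternative start site (chr8:105937024-105937287). At that scaled height it would be above the calling limit in 2 of the 7 other libraries. No peak was listed at its first start site.

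For Tap2, the partner of Tap1, a region inside the gene shared with Gm20496 (chr17:34204484-34204750) had 12 fragments in Brg1 fl/+ library 1, a scaled height above the calling limit in 1 of the 7 other libraries. An upstream region (chr17:34202316-34202727) was the only member region found in Brg1 fl/fl alone, with 18 fragments in library 1. At that scaled height it would be above the calling limit in all 7 other libraries. The margin was small in some, as in Brg1 fl/fl library 2 (8.37 fragments against a limit of 8). Of its words of 50 bases, 86.5% occur again on chromosome 17, so the place of those fragments is uncertain. A second start region of Tapbp (chr17:33919476-33919697) was 222 bp wide and had 45 fragments, again only in Brg1 fl/+ library 1. At that scaled height it would have been above the calling limit in all 7 other libraries. The margin ran from 13.3 fragments against a limit of 13 in Brg1 fl/fl library 2 to 28.9 against 13 in Brg1 fl/+ library 2. The peak was thus also missing well above the limit in a control. Such heights come from the only library with the peak, so a missing peak near the limit shows little.

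The regions outside the promoter windows of the members were promoters of neighbours, or, in the body of Nlrc5, a single low peak. The strongest of the 16 regions was the promoter of BC051226 and Daxx near Tapbp (chr17:33909137-33909679), which ranked within the top 6.98% to 15.4% of peaks in each list. It had scaled heights of 52.9, 60.6, 68.2 and 68.4 fragments in Brg1 fl/+ and 61.3, 59.8, 52.3 and 58.9 in Brg1 fl/fl, which overlapped. Its log2 difference was -0.10 (SE 0.12, limma adjusted p = 0.655). The Rgl2 promoter (chr17:33929189-33930139), downstream of Tapbp, had a peak in 7 libraries, with scaled heights from 24.6 to 31.2 fragments, and none in Brg1 fl/+ library 4, where 25.0 fragments would stand at the scaled height of library 1 and 9 could be called. In the body of Nlrc5, a single peak of 11 fragments was found in Brg1 fl/+ library 1 (chr8:94492054-94492564). The Cpne2 promoter beyond its end (chr8:94532694-94533221) had 9 fragments in Brg1 fl/+ library 1 and 14 in Brg1 fl/fl library 4.

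Beyond the members, 28 further genes of the class I pathway were read from a list, and 17 had a promoter peak in all 8 libraries. In the fit over all regions, 3 of these 17 promoters were lower in Brg1 fl/fl and 1 was higher, against 5.52% and 6.61% of all regions tested and 9.72% of promoters in either direction. Their median log2 difference was -0.13. The lower ones were those of the class I genes H2-Q7 and H2-Q6 and of Rfx5, a subunit of the RFX complex. The higher one was that of Irf1, the interferon-responsive transcription factor. The calls of H2-Q6 and H2-Q7 may not be separate, because their reads are hard to assign, as described below. Of the 6 other class I genes, H2-Q6 and H2-Q7 were the 2 that could be tested, and H2-T23 had no promoter peak in any library. The 3 tested genes of loading and trimming and the 1 tested proteasome activator did not pass the test, nor did 9 of the 11 tested regulators. The constitutive proteasome genes, which the immunoproteasome subunits replace, were also poorly seen: Psmb5 and Psmb6 each had a promoter peak in 1 Brg1 fl/+ library, and Psmb7 in 2 Brg1 fl/+ and 3 Brg1 fl/fl libraries.

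**Figure D4:**
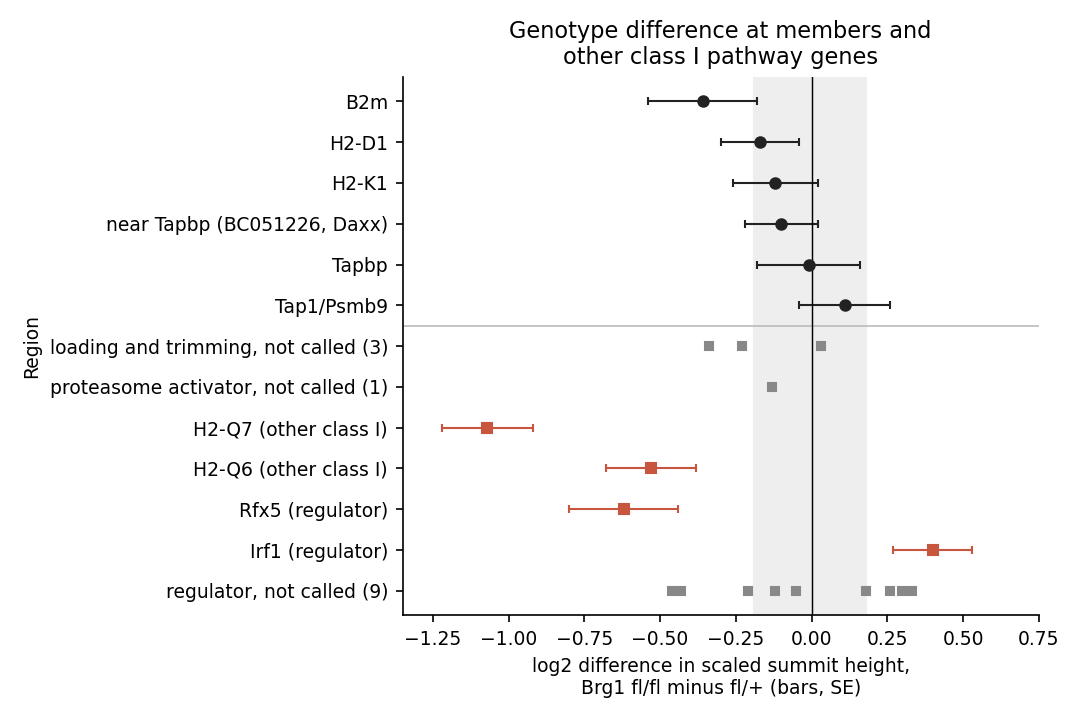
The log2 difference in scaled summit height (Brg1 fl/fl minus Brg1 fl/+, bars are SE) at the 6 tested member regions (circles) and, below the line, at promoters of other class I pathway genes (squares; red, past the limma test; small gray squares, the genes of a role that were not called). The shaded band is the interquartile range of all regions tested, from -0.19 to 0.18; H2-Q7 lies at -1.07 and no member passes the test.

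H2-Q7, which encodes a nonclassical class I heavy chain (Qa-2), had scaled heights of 50.4, 62.2, 75.1 and 63.9 fragments in Brg1 fl/+ and 34.3, 24.6, 26.6 and 34.4 in Brg1 fl/fl. Every mutant library lay below every control. The means were 62.9 ± 10.1 and 30.0 ± 5.14 (SD, n = 4 each), and the log2 difference was -1.07 (SE 0.15, limma adjusted p = 4.51e-06). It passed the test under all 13 alternatives other than scaling by the background (adjusted p from 1.9e-06 to 0.000128). It also passed with scaling by the background, where 99.5% of all calls were lower. H2-Q6, its neighbour, had 48.3, 40.4, 59.7 and 48.2 fragments in Brg1 fl/+ and 27.0, 33.4, 39.4 and 36.3 in Brg1 fl/fl, again without overlap, with a log2 difference of -0.53 (SE 0.15, limma adjusted p = 0.021). That call was lost without Brg1 fl/+ library 3 or Brg1 fl/fl library 1 (adjusted p = 0.0768 and 0.0973). Over the 13 alternatives other than scaling by the background the adjusted p ran from 0.016 to 0.0973.

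The reads of H2-Q6 and H2-Q7 are hard to assign. Their 300-base promoters were the same at 254 of 260 aligned bases (97.7%), and 79.7% of the 50-base words of the H2-Q6 region and 43.1% of those of the H2-Q7 region occur again on chromosome 17. Their values are therefore uncertain as values of a single gene. The H2-Q7 promoter printed above holds the same 4 patterns as H2-K1, with 219 of 253 aligned bases (86.6%) the same.

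The ratio of heights within a library does not depend on how libraries are scaled, and is given as a description because H2-Q7 was singled out after its values were seen. The height of H2-Q7 over that of H2-K1 was 1.17, 1.28, 1.52 and 1.36 in Brg1 fl/+ and 0.857, 0.5, 0.604 and 0.844 in Brg1 fl/fl. H2-Q7 thus stood above H2-K1 in each control and below it in each mutant library. For H2-Q6 over H2-K1 the ratios were 1.12, 0.833, 1.21 and 1.02 in Brg1 fl/+ and 0.673, 0.679, 0.896 and 0.889 in Brg1 fl/fl. H2-D1 over H2-K1 ran from 0.9 to 1.2 in the controls and from 0.929 to 1.2 in the mutants. B2m over H2-K1 ran from 0.759 to 0.933 in the controls and was 1.12, 0.5, 0.646 and 0.644 in Brg1 fl/fl libraries 1 to 4.

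**Figure D5:**
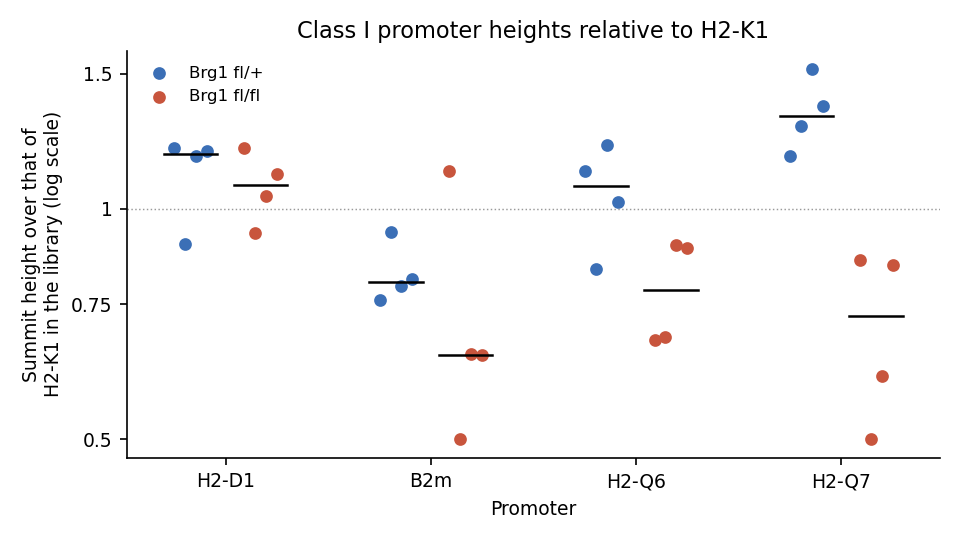
Summit height at the promoters of H2-D1, B2m, H2-Q6 and H2-Q7 divided by that of H2-K1 in the same library (log scale; points, libraries of each Brg1 genotype; black lines, medians of 4). H2-Q7 lies at 1.17 or above in the 4 Brg1 fl/+ libraries and at 0.857 or below in the 4 Brg1 fl/fl libraries, while H2-D1 overlaps between the genotypes.

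Rfx5 is needed for the RFX complex that binds class I and class II promoters. Its promoter had scaled heights of 32.7, 34.7, 34.1 and 32.5 fragments in Brg1 fl/+ and 19.6, 19.3, 22.9 and 26.3 in Brg1 fl/fl, without overlap, and a log2 difference of -0.62 (SE 0.18, limma adjusted p = 0.0201). It passed as lower under 9 of the 13 alternatives other than scaling by the background (adjusted p from 0.016 to 0.134). The call was lost with the deposited fold, with libraries averaged in pairs, and without Brg1 fl/+ library 2 or Brg1 fl/fl library 1 (adjusted p from 0.0542 to 0.134). Irf1 had 47.8, 42.0, 61.4 and 56.1 fragments in Brg1 fl/+ and 74.3, 75.6, 55.0 and 67.1 in Brg1 fl/fl, which overlapped, with a log2 difference of 0.40 (SE 0.13, limma adjusted p = 0.0469). It passed as higher under 4 of the 13 alternatives other than scaling by the background (adjusted p from 0.0161 to 0.196). Scaling by the background turned Irf1 to -0.41 (adjusted p = 0.018) while all regions shifted to -0.81.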

How the data were processed

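ATAC-seq of 8 libraries was analysed, 4 of each genotype as the sample labels give it. The authors used Bowtie2 with mm10 for alignment and MACS2 for peaks, library by library. Versions and options are not given in the sources used here. The deposited lists hold the fold of the summit over local background (a ratio) and, also as deposited, −log10 values of p and q. They hold no read counts, so the authors' DESeq2 comparison of coverage was not repeated. The 8 RNA-seq samples were not analysed here.

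MACS2 computes fold and p from the fragments at the summit and the local background, and both were recovered from them with a tolerance of 0.002 in −log10 p for 99.8% to 99.9% of peaks. The highest peak stood for a region in a library. Heights were divided by median-ratio size factors over regions with a peak in all 8 libraries. Regions with a solved height in all 8 (4582) were tested on the log2 scale with limma 3.58.1 (trend, R 4.3.3), with Benjamini-Hochberg adjustment over all of them and a threshold of 0.05. Start sites came from GENCODE vM21, sequences from RefSeq. Weak regions were set against the lowest height that passes the list's smallest −log10 p at the local background. The members, gene lists and tests were chosen with earlier results of these data known. Values are given for the members, for pathway genes that passed the test and for the constitutive proteasome genes, and counts for other genes; 1 B cell marker is not reported here. The 50-base words and the ratios within libraries were added after the values were seen.

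The alternatives were the deposited fold, scaling by background, regions in 3 libraries of each genotype, a mean of at least 30 fragments, libraries averaged in pairs, the replicate number as a block, each library left out, other promoter windows and other detection limits. The names of the lists group libraries 1 with 2 and 3 with 4 of a genotype. The scatter of heights between libraries of a genotype was 0.759 to 1.20 times that of counting. In Brg1 fl/+ it was 0.887 for libraries 1 and 2 and 0.759 for 3 and 4, against 0.886 to 1.20 across these pairs. In Brg1 fl/fl it was 0.797 and 0.845, against 0.824 to 0.865 across them. Whether the libraries of a pair are technical duplicates was not tested, and no pair was merged in the reported values. The 4 libraries per genotype and the depth limit the precision. On simulated heights for the 4582 regions, 84.5% of planted 2-fold changes were recovered and 0.114% of unchanged regions were called. The simulated libraries were independent and had spread added to that of counting. Smaller changes were not planted, so these shares do not hold for differences as small as those of the members. Python 3.11.15, numpy 2.4.6, pandas 2.3.3, scipy 1.17.1, biopython 1.88 and matplotlib 3.10.9 were used.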

Additional observations from a re-analysis of the deposited data

How the results depend on the processing

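None of the 5 member promoters and of the 1 to 2 other member regions tested was called under any alternative except scaling by background, under which 5 of 5 and 1 of 1 were called, as were all 17 pathway promoters and 4184 of all regions. All regions called numbered 556, against 258 with the deposited fold, 329 with libraries averaged in pairs and 319 to 580 with a library left out (319 without Brg1 fl/fl replicate 1, 349 without Brg1 fl/+ replicate 2). The 4 pathway calls became 2 with the deposited fold, 2 in pairs and 1 to 5 with a library left out (1 without Brg1 fl/fl replicate 1, 2 without Brg1 fl/+ replicate 2). Directions turned for Tapbp (0.16 with the fold, and -0.10 to 0.05 with a library left out: 0.01 without Brg1 fl/+ replicate 2 and without Brg1 fl/fl replicate 1, 0.03 and 0.05 without Brg1 fl/fl replicates 2 and 3), for Tap1/Psmb9 (-0.04 with the fold, -0.70 by background) and for Irf1 (-0.41 by background). The cause of the changes with the fold was not tested. The member regions detected per library differed by -1.75 between the genotypes, by 0.25 with equal list lengths and by -2.83 to 0.167 with a library left out.

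The replicate block gave 486 calls among all regions, 0 among the members and 3 of the 4 in the pathway (Irf1 was lost, adjusted p = 0.0655), and a difference of -1.75 regions detected. Libraries of the same number in both genotypes did not deviate together (r from -0.061 to -0.007 across regions), so the numbers are not taken to pair them. Depth limits what a missing peak shows, since some regions seen in 1 or 2 libraries would lie below the calling limit in the others.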
